A study of Homo sapiens with 6 samples.

Results

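The 46 transcripts described here encode components of transforming growth factor beta (TGF-beta) and bone morphogenetic protein (BMP) signalling. They were taken by gene symbol from a table of 24580 rows, and all 46 symbols had a single row. RNA was sequenced from 6 libraries. LoVo-HM is labelled as a high-metastatic subline of LoVo, untreated, and gave 3 libraries. LoVo, an established human colorectal cancer cell line labelled wild type and likewise untreated, gave the other 3. How LoVo-HM arose, whether it is 1 clone and whether a group's libraries came from separate cultures is not in the labels, so p-values measure the spread between these libraries, which may be technical.

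Ligands of this family bind paired type I and type II receptor kinases at the cell surface. The TGF-beta and activin branch then phosphorylates SMAD2 and SMAD3, the BMP branch SMAD1, SMAD5 and SMAD9, and both use SMAD4 to reach target genes in the nucleus. In normal colon, TGF-beta restrains epithelial growth and BMP signals favour differentiation away from the crypt base. Secreted binding proteins, decoy receptors, inhibitory SMADs and corepressors limit the signal at each step, and the ID genes are early BMP targets.

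Levels are FPKM, fragment counts scaled for transcript length and for library size, which can be compared between genes. Library totals were 424624 to 428265 FPKM in LoVo-HM, against 434108 to 439082 FPKM in LoVo, and the read depth is unknown. Pearson correlations of log2(FPKM + 1) over all rows were 0.995 within groups and 0.969 to 0.97 between them. The epithelial markers EPCAM, CDH1, KRT8, KRT18, KRT19 and CDX2 were present, with the 7 markers of that list summing to 2613 to 2718 FPKM in LoVo-HM, against 2016 to 2071 FPKM in LoVo. Of the markers of colorectal epithelium, VIL1 was listed at 0 in all 6 libraries, and CEACAM5 reached at most 0.056 FPKM, and the identity of the lines as LoVo could not be checked from these values. All 6 tested epithelial markers differed between the lines (limma adjusted p under 0.05), against 44.9% of all genes tested. KRT8, KRT18, KRT19 and CDX2 were the 4 higher in LoVo-HM, and EPCAM and CDH1 the 2 lower. EPCAM averaged 51.7 FPKM in LoVo-HM, against 128 FPKM in LoVo, and CDH1 7.91 FPKM in LoVo-HM, against 48.0 FPKM in LoVo. The part of these differences in the results below was not tested. The 7 fibroblast markers summed to 4.80 to 5.74 FPKM in LoVo-HM, against 4.83 to 6.36 FPKM in LoVo, nearly all of it COL1A1, while COL1A2 and FAP were at 0. The 5 endothelial markers summed to 0.158 to 0.303 FPKM in LoVo-HM, against 0.119 to 0.154 FPKM in LoVo, and the 5 leukocyte markers to 2.63 to 3.15 FPKM in LoVo-HM, against 3.69 to 3.95 FPKM in LoVo, with PECAM1, KDR and PTPRC at 0. Differences below are LoVo-HM minus LoVo on the log2(FPKM + 1) scale ± SE, which understates the change of low transcripts, and adjusted p-values are from limma over all 14487 genes tested.

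Of the 46 members, 42 had a mean of at least 0.5 FPKM and were tested. BAMBI and TGFB2 rose by more than 2-fold on this scale in LoVo-HM, and BMP2 and TGIF1 fell by more than 2-fold. Of the 8 SMADs 5 rose, with SMAD1 foremost, and 8 of the 10 tested receptors did not pass the test. In all, 11 of the 42 rose, 10 fell and 21 did not pass (limma, adjusted p under 0.05). That is 50% called, against 44.9% of all genes tested (21.8% higher and 23.1% lower), so the share of called members was close to the background. The median log2 difference of the 42 was 0.07, against 0.003 over all genes tested, and the median absolute difference was 0.29, against 0.21. The 4 past 2-fold (2 higher, 2 lower) stand beside 6.56% of all genes tested (2.37% higher and 4.18% lower). In a culture, fewer cells with a transcript and less of it per cell cannot be told apart.

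**Figure D1:**
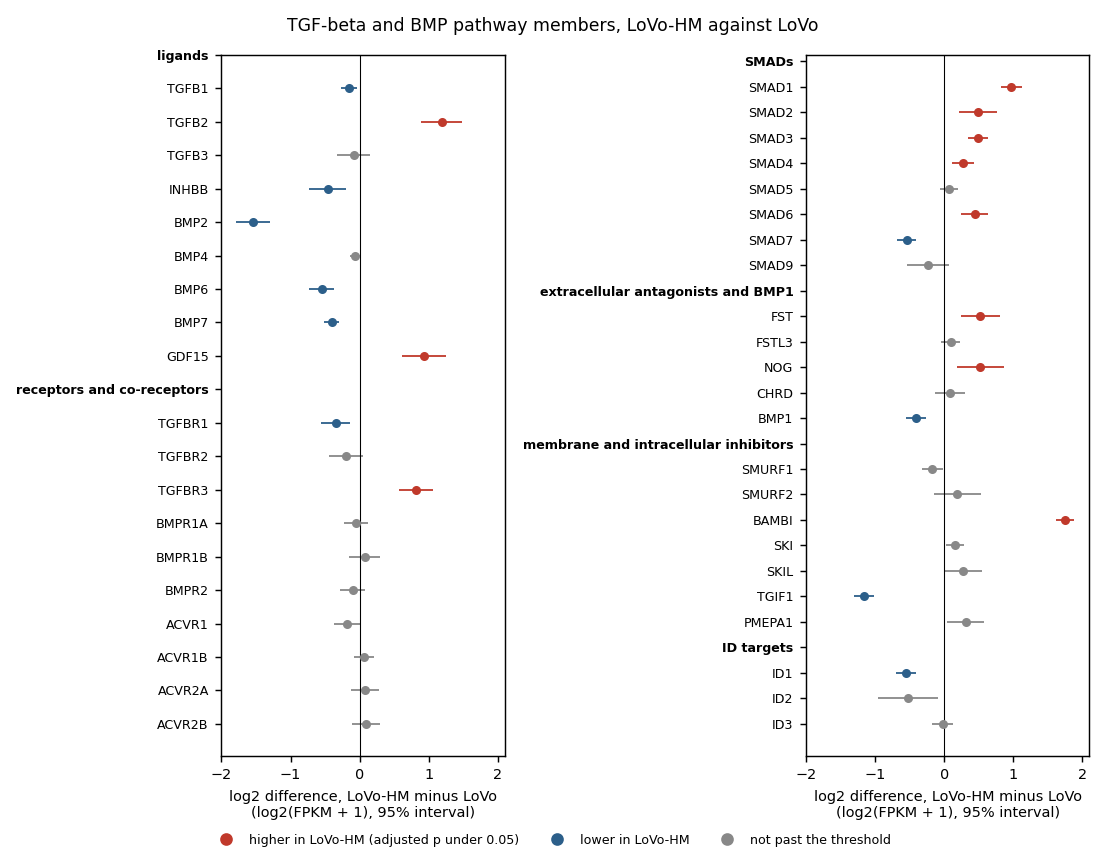
Log2 differences (LoVo-HM minus LoVo, log2(FPKM + 1), x axis) of the 42 tested members with 95% intervals, grouped by role, red where higher and blue where lower in LoVo-HM at an adjusted p under 0.05 and grey where not past it. BAMBI lies farthest to the right at 1.75 and BMP2 farthest to the left at -1.54, and 8 of the 10 tested receptors are grey.

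BAMBI encodes a membrane pseudoreceptor that resembles a type I receptor but lacks a kinase domain and blocks signalling. It was measured at 64.5, 66.7 and 62.6 FPKM in the LoVo-HM libraries, against 17.4, 19.1 and 19.1 FPKM in the LoVo libraries. Every LoVo-HM library was above every LoVo library by a wide margin. The mean was 3.49-fold higher in LoVo-HM (log2 difference 1.75 ± 0.055, limma adjusted p = 4.16e-08), and the gene lies on chromosome 10 at 28677342 to 28682939 (GRCh38). TGIF1, a homeodomain corepressor of SMAD complexes (chromosome 18, 3411608 to 3459978), went the other way, at 24.0, 20.3 and 22.1 FPKM in LoVo-HM, against 50.9, 50.5 and 50.4 FPKM in LoVo. The LoVo values were nearly identical and all lay above the LoVo-HM values. TGIF1 fell in LoVo-HM with a log2 difference of -1.16 ± 0.062 (limma adjusted p = 1.35e-06).

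TGFB2, a TGF-beta ligand (chromosome 1, 218346235 to 218444619), stood at 3.06, 3.34 and 3.96 FPKM in LoVo-HM, against 1.29, 0.769 and 0.827 FPKM in LoVo. The groups did not overlap, and the mean was 3.59-fold higher in LoVo-HM (log2 difference 1.19 ± 0.129, limma adjusted p = 0.000115). BMP2, a BMP ligand (chromosome 20, 6767664 to 6780280), was close to 0 in LoVo-HM, at 0.0571, 0.0649 and 0.0228 FPKM, against 1.87, 1.95 and 2.35 FPKM in LoVo. It fell in LoVo-HM with a log2 difference of -1.54 ± 0.108 (limma adjusted p = 7.53e-06). At a pseudocount of 0.1 the BMP2 difference became -3.87, and 7 members passed 2-fold, with GDF15, NOG and SMAD1 added.

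The promoters of 3 of the 4 members past 2-fold, BAMBI, TGFB2 and TGIF1, are shown because these genes had large differences in opposite directions, and that of BMP2 is not shown here. In RefSeq's promoter table (GRCh38.p14) 41 of the 46 members were matched. Each line gives the 250 bases before a start, 5′ to 3′ on the gene's strand. For every member the first listed start was used, which for TGIF1 was the first of 7. Capitals mark GGCGCC, the core of a BMP response element, and CAGAC or its reverse complement GTCTG, a SMAD-binding core. The windows are chr10:28677271-28677520, plus strand, chr1:218345086-218345335, plus strand, and chr18:3411759-3412008, plus strand.
BAMBI: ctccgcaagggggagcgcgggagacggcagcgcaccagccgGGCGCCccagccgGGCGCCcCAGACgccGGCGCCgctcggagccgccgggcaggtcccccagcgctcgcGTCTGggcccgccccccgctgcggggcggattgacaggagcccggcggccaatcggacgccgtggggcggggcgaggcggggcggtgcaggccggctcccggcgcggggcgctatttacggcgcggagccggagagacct
TGFB2: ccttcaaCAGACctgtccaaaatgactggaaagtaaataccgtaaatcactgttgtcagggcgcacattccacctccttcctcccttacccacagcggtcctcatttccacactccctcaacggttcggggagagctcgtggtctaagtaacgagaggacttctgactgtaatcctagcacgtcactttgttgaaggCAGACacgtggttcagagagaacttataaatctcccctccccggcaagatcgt
TGIF1: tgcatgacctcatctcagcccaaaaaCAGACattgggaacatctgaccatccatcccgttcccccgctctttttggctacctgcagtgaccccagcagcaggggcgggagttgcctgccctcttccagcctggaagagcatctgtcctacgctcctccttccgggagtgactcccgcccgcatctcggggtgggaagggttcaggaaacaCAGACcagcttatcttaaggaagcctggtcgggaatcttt
The BAMBI window held 3 copies of GGCGCC and 2 of CAGAC on either strand, in a sequence with 81.2% G and C. The TGFB2 and TGIF1 windows each held 2 of CAGAC and none of GGCGCC, with 50.4% and 57.6% G and C. Among the 41 member windows 34.1% held GGCGCC, against 16.4% of 35116 promoters in the table, and the median G and C content was 69.6% and 58%, a difference whose part in the motif share was not tested. CAGAC was found in 36.6% of member windows and 38% of all promoters. For both motifs and the G and C content, members entered by their first listed start only. The 35116 promoters include every listed start of a gene, so the shares are not counted alike. The 2 motifs can share a base, which happened in 0 of the member windows. A match describes the letters only, and the factor's binding was not measured.

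Among the 10 ligands BMP4 held most of the transcript. It was measured at 343, 345 and 341 FPKM in LoVo-HM, against 355, 362 and 358 FPKM in LoVo. BMP4 made up 82.5 ± 0.345% of the summed ligand FPKM in LoVo-HM, against 80.8 ± 0.752% in LoVo (SD, n = 3 each). The libraries of the groups did not overlap, but the log2 difference was only -0.06, with a 95% interval of -0.14 to 0.01 (limma adjusted p = 0.153). Quantile normalization gave -0.17 (limma adjusted p = 0.000981). Of the 9 ligands tested 2 rose, 5 fell and 2 did not pass. That is 77.8% called, against 44.9% of all genes tested (21.8% higher and 23.1% lower). The share rests on only 9 genes, and the call of TGFB1 among them was unstable, as given below.

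BMP7, a further BMP ligand and the second most abundant, averaged 34.5 ± 0.539 FPKM in LoVo-HM, against 46.1 ± 2.16 FPKM in LoVo (SD, n = 3 each) and fell (log2 difference -0.41 ± 0.05, limma adjusted p = 0.000237). BMP6, which in liver regulates iron handling, fell too, at 3.93 ± 0.384 FPKM in LoVo-HM, against 6.20 ± 0.131 FPKM in LoVo (log2 difference -0.55 ± 0.08). GDF15, a distant family member induced by cell stress that acts through GFRAL in the brainstem, rose. It was at 8.38, 7.65 and 6.83 FPKM in LoVo-HM, against 2.80, 3.36 and 4.54 FPKM in LoVo (log2 difference 0.93 ± 0.137, limma adjusted p = 0.000711). All LoVo-HM libraries were above all LoVo libraries.

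TGFB1 was the most abundant TGF-beta ligand, at 20.7, 20.9 and 20.0 FPKM in LoVo-HM, against 23.7, 22.1 and 22.8 FPKM in LoVo. Its log2 difference of -0.15 ± 0.052 passed the threshold narrowly (limma adjusted p = 0.0441). The call was lost without any 1 of the 6 libraries, with adjusted p-values of 0.0587 to 0.136, and with the replicate number as a block (adjusted p = 0.0641). TGFB3 did not pass, at 1.91 ± 0.329 FPKM in LoVo-HM, against 2.08 ± 0.059 FPKM in LoVo, with a 95% interval of the log2 difference of -0.32 to 0.15. The activin subunit INHBB fell, at 0.455 ± 0.0973 FPKM in LoVo-HM, against 1.01 ± 0.173 FPKM in LoVo (log2 difference -0.46 ± 0.117, limma adjusted p = 0.0118). Its relative INHBA stayed under the filter in every library, with a maximum of 0.168 FPKM.

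**Figure D2:**
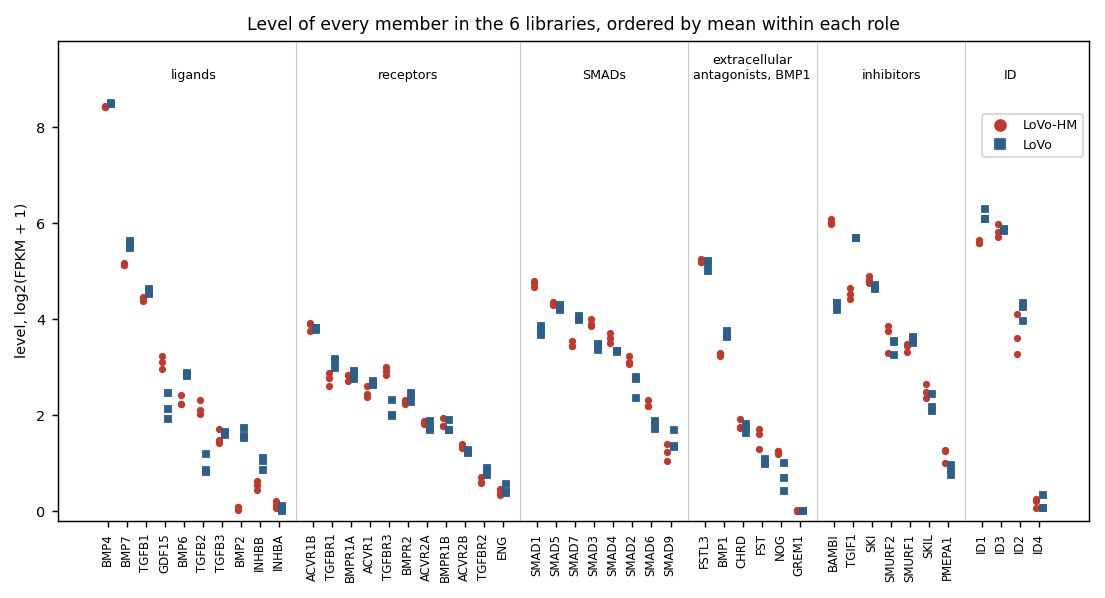
Level of each of the 46 members as log2(FPKM + 1) (y axis) in the 3 LoVo-HM libraries (red circles) and the 3 LoVo libraries (blue squares), ordered by mean within each role. BMP4 stands above every other member, and TGFBR2 and ENG are the lowest of the receptors.

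Of the 11 receptors and co-receptors 10 were tested, of which TGFBR3 rose, TGFBR1 fell and 8 did not pass, or 20% called against 44.9% of all genes tested. The values of the lines did not overlap for 5 of the 10, where the background was 55% of all genes tested. Their summed level was 47.9 ± 1.16 FPKM in LoVo-HM, against 46.9 ± 1.61 FPKM in LoVo (SD, n = 3 each). ACVR1B, the activin type I receptor, was the most abundant, at 14.2, 14.0 and 12.5 FPKM in LoVo-HM, against 13.0, 13.0 and 12.7 FPKM in LoVo. The groups overlapped, and the 95% interval of its log2 difference was -0.08 to 0.21.

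TGFBR1, the TGF-beta type I receptor, was measured at 5.83, 5.08 and 6.34 FPKM in LoVo-HM, against 6.90, 7.73 and 8.04 FPKM in LoVo. The groups did not overlap, and the log2 difference was -0.34 ± 0.092 (limma adjusted p = 0.0151). That call was lost without LoVo replicate 3 (log2 difference -0.3, adjusted p = 0.0528). TGFBR2, the type II receptor that binds TGF-beta and activates TGFBR1, was low in both lines, at 0.529, 0.496 and 0.639 FPKM in LoVo-HM, against 0.804, 0.679 and 0.876 FPKM in LoVo. All LoVo-HM values lay below all LoVo values, yet the difference did not pass (log2 difference -0.2, 95% interval -0.44 to 0.05, limma adjusted p = 0.164). TGFBR3 (betaglycan), a co-receptor that presents TGF-beta2 in particular, rose, at 6.63, 6.10 and 7.05 FPKM in LoVo-HM, against 3.04, 2.97 and 3.98 FPKM in LoVo. The log2 difference was 0.82 ± 0.105 (limma adjusted p = 0.000322). ENG, a co-receptor best known from endothelium, was at most 0.478 FPKM and was not tested.

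The BMP receptors did not pass. BMPR1A was at 5.55, 6.17 and 6.12 FPKM in LoVo-HM, against 5.74, 6.62 and 6.29 FPKM in LoVo, with a 95% interval of the log2 difference of -0.23 to 0.12. BMPR1B was at 2.41, 2.43 and 2.87 FPKM in LoVo-HM, against 2.24, 2.72 and 2.24 FPKM in LoVo, with an interval of -0.16 to 0.3. Both are type I receptors for BMPs, and their libraries overlapped between the lines. The BMP type II receptor BMPR2 was at 3.82, 3.70 and 3.97 FPKM in LoVo-HM, against 4.23, 3.86 and 4.49 FPKM in LoVo, with an interval of -0.28 to 0.08. ACVR1, a type I receptor for BMP6 and BMP7, was at 4.45, 4.22 and 5.08 FPKM in LoVo-HM, against 5.18, 5.55 and 5.32 FPKM in LoVo. Its groups did not overlap, and its log2 difference was -0.19 ± 0.082 (limma adjusted p = 0.0934). It passed without LoVo-HM replicate 3 (log2 difference -0.25, adjusted p = 0.0419). The type II receptors ACVR2A and ACVR2B, which serve activins and some BMPs, did not pass either. ACVR2A was at 2.56, 2.68 and 2.54 FPKM in LoVo-HM, against 2.25, 2.70 and 2.32 FPKM in LoVo, with an interval of -0.13 to 0.27. ACVR2B was at 1.63, 1.51 and 1.48 FPKM in LoVo-HM, against 1.38, 1.33 and 1.42 FPKM in LoVo, with an interval of -0.11 to 0.3. ACVR2A overlapped between the lines and ACVR2B did not.

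SMAD transcripts summed to 93.1 ± 2.2 FPKM in LoVo-HM, against 74.4 ± 1.69 FPKM in LoVo (SD, n = 3 each). Of the 8 members 5 rose, 1 fell and 2 did not pass, or 75% called against 44.9% of all genes tested (21.8% higher and 23.1% lower). SMAD1, an effector of the BMP branch (chromosome 4, 145481194 to 145558079), showed the largest difference of them, at 26.7, 24.4 and 26.1 FPKM in LoVo-HM, against 12.8, 13.4 and 11.7 FPKM in LoVo. The mean was 2.03-fold higher in LoVo-HM (log2 difference 0.97 ± 0.066, limma adjusted p = 6.22e-06), with no overlap. The other BMP effectors did not pass. SMAD5 averaged 19.0 ± 0.455 FPKM in LoVo-HM, against 18.1 ± 0.711 FPKM in LoVo (95% interval of the log2 difference -0.06 to 0.19), and SMAD9 1.36 ± 0.28 FPKM in LoVo-HM, against 1.77 ± 0.382 FPKM in LoVo (interval -0.54 to 0.07).

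SMAD3, an effector of the TGF-beta branch, rose, at 15.0, 14.0 and 13.6 FPKM in LoVo-HM, against 9.33, 10.1 and 10.0 FPKM in LoVo (log2 difference 0.49 ± 0.064, limma adjusted p = 0.000355). Its partner SMAD2 rose by a like amount, at 7.37, 7.57 and 8.36 FPKM in LoVo-HM, against 4.15, 5.75 and 5.99 FPKM in LoVo (log2 difference 0.49 ± 0.119, limma adjusted p = 0.00997). In both cases every LoVo-HM library was above every LoVo library. SMAD4, the shared partner, averaged 11.2 ± 0.862 FPKM in LoVo-HM, against 9.09 ± 0.117 FPKM in LoVo (log2 difference 0.27 ± 0.069, limma adjusted p = 0.0131). That call was lost without LoVo-HM replicate 1 (log2 difference 0.22, adjusted p = 0.0519).

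The inhibitory SMADs moved in opposite directions. SMAD6, which acts mainly on the BMP branch, rose, at 3.98, 3.54 and 3.59 FPKM in LoVo-HM, against 2.29, 2.45 and 2.67 FPKM in LoVo (log2 difference 0.44 ± 0.086, limma adjusted p = 0.00342). SMAD7, which blocks both branches and is itself induced by TGF-beta, fell, at 9.85, 10.6 and 9.94 FPKM in LoVo-HM, against 15.9, 14.7 and 15.1 FPKM in LoVo (log2 difference -0.54 ± 0.061, limma adjusted p = 0.000137). Neither gene's libraries overlapped between the lines.

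**Figure D3:**
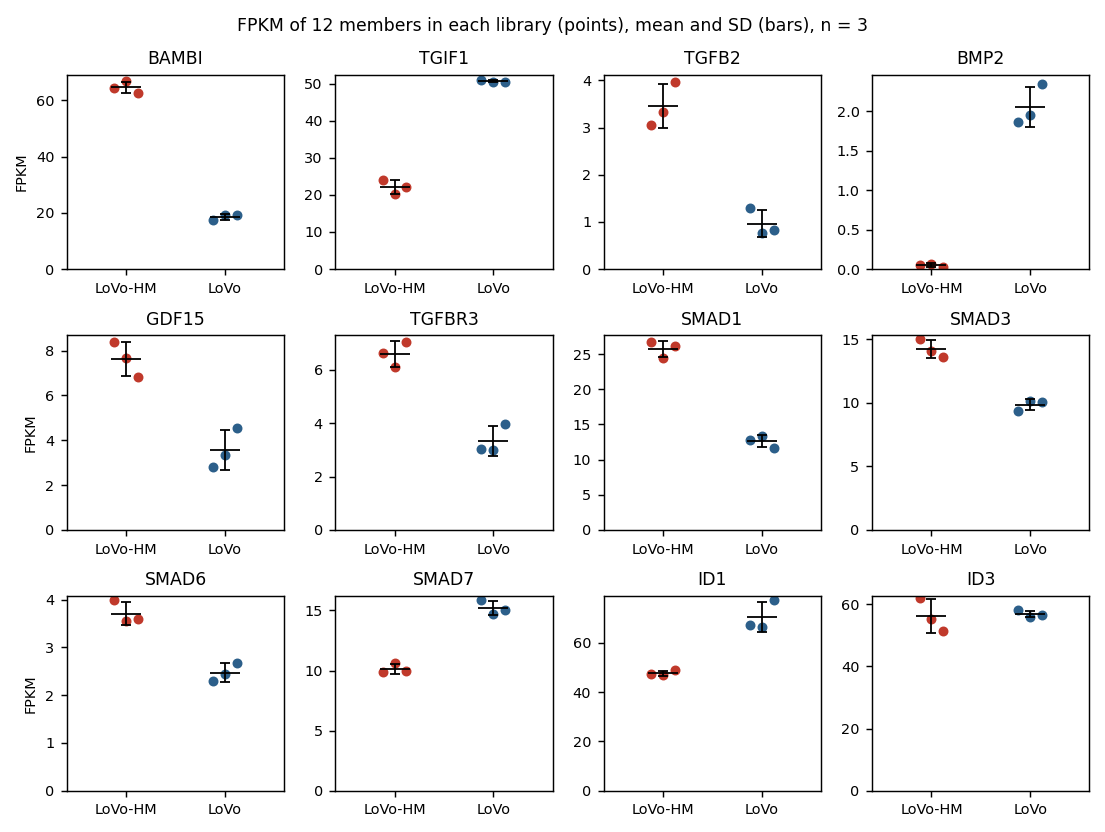
FPKM (y axis, from 0) of 12 members in each LoVo-HM (red) and LoVo (blue) library, with the mean and SD of 3 libraries. BAMBI reaches 62.6 to 66.7 FPKM in LoVo-HM, against 17.4 to 19.1 FPKM in LoVo, TGIF1 and BMP2 show the reverse order, and ID3 overlaps between the lines.

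The extracellular antagonists were led by FSTL3, a follistatin-like protein that binds activins, at 35.4, 37.4 and 35.7 FPKM in LoVo-HM, against 35.9, 34.6 and 31.2 FPKM in LoVo. The libraries overlapped, and the 95% interval of the log2 difference was -0.05 to 0.23. FST (follistatin), an activin antagonist, rose, at 1.93 ± 0.415 FPKM in LoVo-HM, against 1.03 ± 0.0821 FPKM in LoVo (log2 difference 0.52 ± 0.123, limma adjusted p = 0.00883). NOG (noggin), which sequesters BMPs, was at 1.38, 1.37 and 1.27 FPKM in LoVo-HM, against 0.337, 1.00 and 0.627 FPKM in LoVo. It rose with a log2 difference of 0.52 ± 0.15 (limma adjusted p = 0.021), and the call was lost without LoVo-HM replicate 1 or 2 (adjusted p = 0.0576 and 0.0565) and without LoVo replicate 1 or 3 (adjusted p = 0.0557 and 0.0522). CHRD (chordin), another BMP antagonist, did not pass, at 2.50 ± 0.261 FPKM in LoVo-HM, against 2.31 ± 0.204 FPKM in LoVo. GREM1 was listed at 0 in 5 of the 6 libraries and at 0.017 FPKM in LoVo-HM replicate 3. BMP1, a procollagen proteinase that also cleaves chordin and is no BMP ligand, fell, at 8.63 ± 0.222 FPKM in LoVo-HM, against 11.8 ± 0.622 FPKM in LoVo (log2 difference -0.4 ± 0.064, limma adjusted p = 0.00101).

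Beside BAMBI and TGIF1, the other 5 membrane and intracellular inhibitors did not pass. Of the 7, 28.6% were called, against 44.9% of all genes tested. The ubiquitin ligases SMURF1 and SMURF2, which mark SMADs and receptors for degradation, had log2 differences of -0.17 and 0.19. SMURF2 varied widely in LoVo-HM, at 12.4, 8.75 and 13.6 FPKM in LoVo-HM, against 8.60, 10.5 and 10.7 FPKM in LoVo, and passed without LoVo-HM replicate 2 (log2 difference 0.36, limma adjusted p = 0.025). The corepressors SKI and SKIL averaged 27.3 ± 1.46 and 4.69 ± 0.592 FPKM in LoVo-HM, against 24.4 ± 0.734 and 3.71 ± 0.607 FPKM in LoVo, with limma adjusted p-values of 0.0526 and 0.0862. SKI passed without LoVo-HM replicate 3 (adjusted p = 0.0298), with the replicate block (0.0447) and in 3 other alternatives, and SKIL without LoVo replicate 3 (0.0293) and with quantile normalization (0.0283). PMEPA1, a TGF-beta-induced membrane protein that limits SMAD activation, averaged 1.27 ± 0.225 FPKM in LoVo-HM, against 0.824 ± 0.135 FPKM in LoVo (log2 difference 0.31 ± 0.118, limma adjusted p = 0.0601), and passed without LoVo-HM replicate 1 (adjusted p = 0.0369). The inhibitors summed to 141 ± 4.34 FPKM in LoVo-HM, against 119 ± 2.02 FPKM in LoVo. Without BAMBI the order was the opposite, with 76.6 ± 5.2 FPKM in LoVo-HM, against 100.4 ± 1.02 FPKM in LoVo (SD, n = 3 each). That sum still holds TGIF1, at 22.1 FPKM in LoVo-HM, against 50.6 FPKM in LoVo, a wider gap than that of the sums. Of the other 5 only SMURF1 had a lower mean in LoVo-HM, so the opposite order is that of TGIF1 and not of the remaining inhibitors.

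The ID genes encode helix-loop-helix proteins without a DNA-binding region that hold back differentiation factors. ID1 (chromosome 20, 31605283 to 31606515) fell, at 47.2, 46.8 and 48.9 FPKM in LoVo-HM, against 67.3, 66.6 and 77.3 FPKM in LoVo (log2 difference -0.55 ± 0.063, limma adjusted p = 0.000147). The groups did not overlap. ID3 was at 62.0, 55.3 and 51.4 FPKM in LoVo-HM, against 58.1, 56.0 and 56.7 FPKM in LoVo, and the LoVo values lay inside the LoVo-HM range (95% interval of the log2 difference -0.17 to 0.13). ID2 was at 16.2, 11.2 and 8.67 FPKM in LoVo-HM, against 18.0, 14.6 and 19.3 FPKM in LoVo. Its LoVo-HM libraries were spread widely, and its log2 difference of -0.53 ± 0.19 missed the threshold (limma adjusted p = 0.0509), but passed it without LoVo-HM replicate 1 (log2 difference -0.75, adjusted p = 0.00434), without LoVo replicate 2 (adjusted p = 0.0456) and with the replicate block (adjusted p = 0.0401). ID4 stayed under the filter, with a maximum of 0.256 FPKM. The ID genes summed to 116 ± 8.5 FPKM in LoVo-HM, against 145 ± 8.26 FPKM in LoVo.

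**Figure D4:**
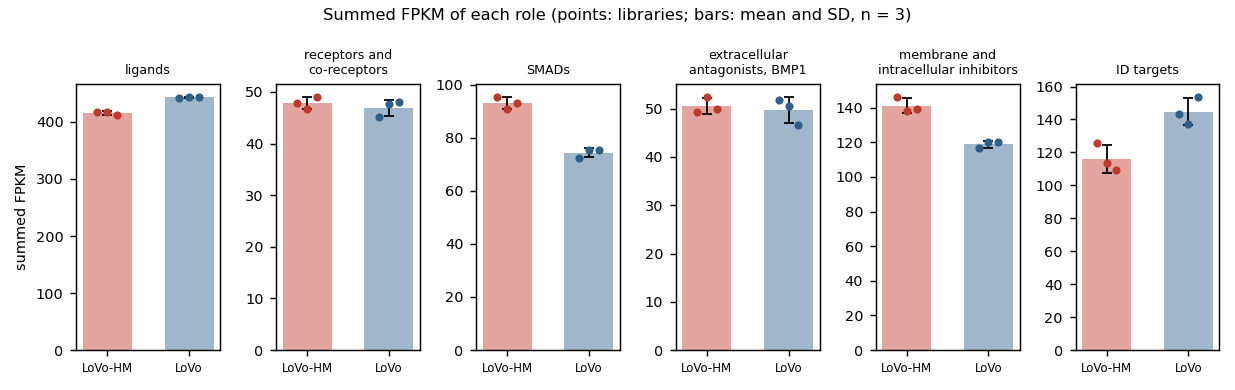
Summed FPKM (y axis, from 0) of the members of each role in each library (points), with the mean and SD of 3 libraries in LoVo-HM (red) and LoVo (blue). The SMADs and the inhibitors sum higher in LoVo-HM, and the ligands and ID genes sum higher in LoVo. Without BAMBI, but with TGIF1, the inhibitors sum higher in LoVo. The receptors and extracellular antagonists overlap.

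Beyond the members, 101 further genes of the pathway were listed, of which 59 were tested and 22 were at 0 in every library. Of the 59, 14 rose, 19 fell and 26 did not pass, or 55.9% called against the background of 44.9%, with a median log2 difference of -0.06. Among genes of ligands and of latent TGF-beta handling, 7 of 14 fell and 1 rose, or 57.1% called. ITGB6, whose integrin with ITGAV releases active TGF-beta from its latent form, was at 0.279, 0.0617 and 0.0523 FPKM in LoVo-HM, against 2.61, 3.18 and 2.53 FPKM in LoVo (log2 difference -1.74 ± 0.124, limma adjusted p = 8.19e-06). ITGAV itself fell, at 9.64 ± 0.636 FPKM in LoVo-HM, against 15.0 ± 0.33 FPKM in LoVo. The ligand BMP8A fell too, at 2.74 ± 0.218 FPKM in LoVo-HM, against 4.37 ± 0.214 FPKM in LoVo, an uncertain value because BMP8B is a close copy. BMP8B fell as well, at 5.01 ± 0.42 FPKM in LoVo-HM, against 6.46 ± 0.329 FPKM in LoVo (limma adjusted p = 0.0129). LTBP3, a latent TGF-beta binding protein, was the member of this list that rose, at 22.8 ± 1.7 FPKM in LoVo-HM, against 16.0 ± 1.28 FPKM in LoVo.

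Of the 4 other receptors tested 2 fell and 2 did not pass, or 50% called against 44.9% of all genes tested. ACVR1C, a type I receptor for NODAL, was at 0.195, 0.292 and 0.368 FPKM in LoVo-HM, against 2.30, 2.54 and 2.06 FPKM in LoVo (log2 difference -1.36 ± 0.108, limma adjusted p = 1.68e-05). CD109, a co-receptor that restrains TGF-beta signalling, was at 6.31, 5.97 and 6.57 FPKM in LoVo-HM, against 15.7, 15.6 and 16.7 FPKM in LoVo (log2 difference -1.22 ± 0.064). Both fell with no overlap between the lines, which their choice by smallest p favours. Of the 4 tested on the list 3 did not overlap, against 55% of all genes tested. All 3 tested genes of other antagonists passed, against 44.9% of all genes tested. That share rests on only 3 genes, as 11 of the 14 on the list were not tested. FSTL1 rose (log2 difference 0.66 ± 0.056), as did TWSG1 (0.28 ± 0.065), which modulates BMP binding by chordin, and the BMP antagonist NBL1 fell (-0.94 ± 0.05). Of 16 other intracellular regulators 2 rose, 2 fell and 12 did not pass, or 25% called against 44.9% of all genes tested. NEDD4L, a ubiquitin ligase for activated SMAD2 and SMAD3, fell (log2 difference -0.61 ± 0.104, limma adjusted p = 0.00155), and ZFYVE9 (SARA), which brings them to the receptor, fell by less (-0.23 ± 0.08, adjusted p = 0.0445). The kinase MAP3K7 (TAK1) and the ubiquitin ligase WWP1 rose slightly (0.22 ± 0.061 and 0.19 ± 0.058). The calls of ZFYVE9, MAP3K7 and WWP1 were lost when single libraries were left out, and that of ZFYVE9 also with the replicate block (adjusted p = 0.0505). For ZFYVE9 these were each of the libraries except LoVo-HM replicate 3 (adjusted p of 0.0699 to 0.142). For MAP3K7 they were LoVo-HM replicate 3 and LoVo replicates 1 and 2 (0.0512 to 0.0674), and for WWP1 LoVo-HM replicates 1 and 3 and LoVo replicates 1 and 2 (0.0637 to 0.0876).

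Genes listed as TGF-beta targets went both ways, with 5 of 16 tested higher, 6 lower and 5 not past, or 68.8% called against 44.9% of all genes tested (21.8% higher and 23.1% lower). THBS1 (thrombospondin 1), which can also activate latent TGF-beta, was at 13.9, 12.8 and 13.4 FPKM in LoVo-HM, against 1.52, 1.40 and 1.85 FPKM in LoVo (log2 difference 2.47 ± 0.086, limma adjusted p = 8.31e-08). The matrix gene TGFBI rose by 1.73 ± 0.095, and FN1, the gene for fibronectin, by 1.33 ± 0.084. JUNB, an AP-1 transcription factor and early TGF-beta target, fell, at 15.6, 18.4 and 14.6 FPKM in LoVo-HM, against 43.8, 40.7 and 42.6 FPKM in LoVo (log2 difference -1.34 ± 0.081, limma adjusted p = 2.85e-06). Each of these 4 genes separated the lines without overlap, which their choice by smallest p favours. Of the 16 tested on the list 12 did not overlap, against 55% of all genes tested.

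Of the 6 tested BMP targets 4 rose, 1 fell and 1 did not pass, or 83.3% called against 44.9% of all genes tested (21.8% higher and 23.1% lower), a share that rests on only 6 genes. GATA2 and GATA3, transcription factors induced by BMP in vertebrate embryos, had the largest differences. GATA2 was at 70.5, 64.3 and 57.9 FPKM in LoVo-HM, against 10.3, 9.99 and 9.84 FPKM in LoVo (log2 difference 2.56 ± 0.073, limma adjusted p = 2.23e-08), and GATA3 averaged 17.5 ± 1.46 FPKM in LoVo-HM, against 5.26 ± 0.211 FPKM in LoVo (log2 difference 1.56 ± 0.074). The homeobox genes MSX1 and MSX2 moved apart. MSX1 rose, at 22.7 ± 1.4 FPKM in LoVo-HM, against 15.2 ± 0.745 FPKM in LoVo, and MSX2 fell, at 12.6 ± 1.31 FPKM in LoVo-HM, against 23.0 ± 0.0892 FPKM in LoVo.

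**Figure D5:**
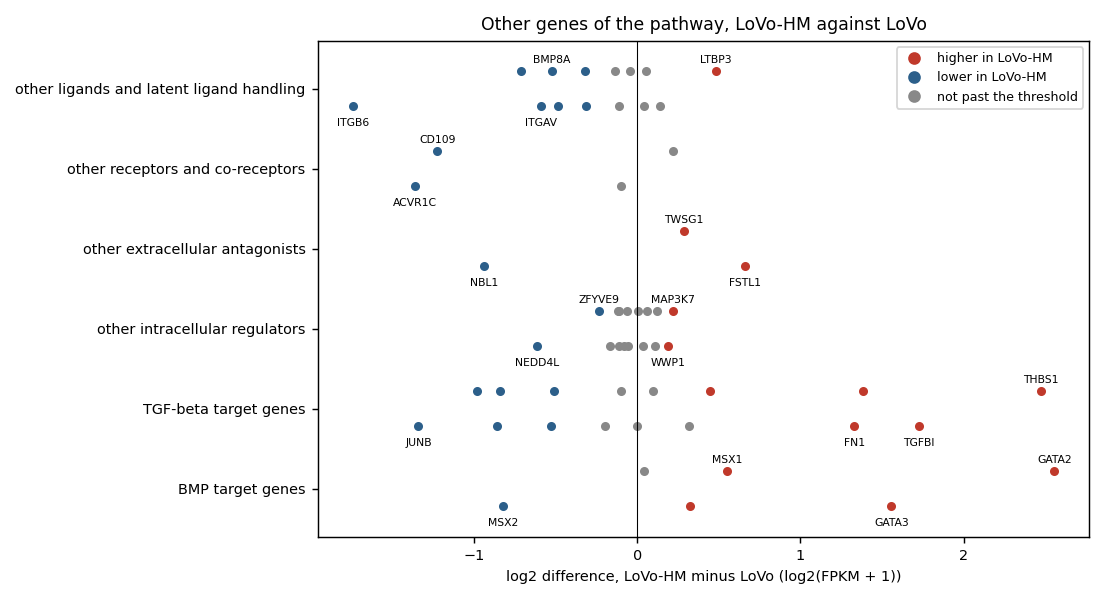
Log2 differences (LoVo-HM minus LoVo, log2(FPKM + 1), x axis) of the 59 tested genes of the pathway outside the members, by list (y axis; the offset within a row has no meaning), red where higher, blue where lower and grey where not past an adjusted p of 0.05. GATA2 and THBS1 lie farthest to the right at 2.56 and 2.47, and ITGB6 farthest to the left at -1.74.

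The values of the 2 lines did not overlap for 28 of the 42 tested members, where the background was 55% of all genes tested. The strand setting of the counting is not given in the sources used here. GENCODE 29 places exons of a gene on the opposite strand over those of 14 of the 46 members, SMAD1, TGFB1, SMAD3, ID2 and BMP1 among them. The same holds for 9 of the 21 further genes named by rule. These are JUNB, THBS1, ITGAV, CD109, NEDD4L, WWP1, ZFYVE9, FSTL1 and BMP8A. Reads from such pairs cannot be told apart. Exons of another gene on the same strand also overlap some genes, TGFB2, SMAD4, BMP1, ITGB6 and NBL1 among them.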

How the data were processed

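Trizol RNA was used with Illumina's TruSeq RNA kit, per the labels' protocols. The authors deposited FPKM per gene, 1 column for each of the 6 libraries. The submitters' processing notes name GRCh38. Not given in the sources used here: aligner, counter, annotation and depth. Ratios of 441 genes below 0.3 FPKM between a pair of libraries showed no steps worth 1 read (at most 2.72% fell in a single bin), so no counting intervals are given.

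FPKM values are not counts, so log2(FPKM + 1) was fitted with limma 3.58.1 (R 4.3.3), with an intensity trend, two-sided moderated tests and Benjamini-Hochberg adjustment over the 14487 rows with a mean of at least 0.5 FPKM. The 4606 gene models without a symbol stayed in the table. The fit was also run on simulated independent normal values, with changes planted only in genes above a level of 2 FPKM. It therefore does not show how well changes of low members such as BMP2, NOG and INHBB are found. The members, lists and rules were chosen with earlier results of these data known. By rule, values by library are given for members changed at least 2-fold, the most abundant of each role and the signalling receptors, and up to 4 called genes of each further list, those with the smallest p, are named. The library values of GDF15, TGFB1, TGFBR3, SMAD2, SMAD3, SMAD6, SMAD7, NOG, SMURF2, ID2, ID3 and the further genes were added after they were seen. BMP8B, outside that rule, is given beside its close copy BMP8A. CCN2 was matched as CTGF. Positions are from GENCODE 29. Alternatives are given in the closing section.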

Additional observations from a re-analysis of the deposited data

How the results depend on the processing

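Of the 21 members called, 17 kept their call in every alternative that tested them, and 0 reversed. The alternatives were pseudocounts of 0.1 and 0.5, no filter, a minimum mean of 2 FPKM, an equal total for each library, scaling by median ratios, quantile normalization, no intensity trend, robust variance estimates, a replicate block, and omission of single libraries. The minimum mean of 2 FPKM left the called members BMP2, INHBB, FST and NOG untested. TGFB1, TGFBR1, SMAD4 and NOG lost their calls in the settings named in the report, and TGFB1 also at an equal total (limma adjusted p = 0.0911), with quantile normalization (0.0649) and without a trend (0.0701). Calls were gained by SKI at an equal total (0.0229), with quantile normalization (0.041) and at a minimum mean of 2 FPKM (0.0499), by BMP4 (0.000981), SKIL (0.0283) and PMEPA1 (0.0351) with quantile normalization, by PMEPA1 without a trend (0.0345), and by ID2 at a minimum mean of 2 FPKM (0.0458) and with median ratios (0.048). ZFYVE9 lost its call with no filter (0.0701), at an equal total (0.0708) and with quantile normalization (0.111). BAMBI stayed within 1.71 to 1.8 and TGIF1 within -1.22 to -1.1. The members past 2-fold numbered 7 with a pseudocount of 0.1, against 4. Members called higher numbered 10 to 14 and lower 8 to 11. Same-numbered libraries showed no shared deviation (correlations of -0.007 to 0.026, with 1 of 3 LoVo-HM libraries closest to its own number). With 3 libraries in each group this cannot exclude that the numbers pair them, and the labels do not say. With the replicate block 12 members were called higher and 10 lower. Summed levels were recomputed under 2 scalings, without each library and without BAMBI, choices made after seeing the data. At an equal total the ligand sum was 420.3 FPKM in LoVo-HM, against 438 FPKM in LoVo. Without BAMBI the inhibitor sum was 76.6 FPKM in LoVo-HM, against 100.4 FPKM in LoVo. TGIF1 stayed in that sum, at 22.1 FPKM in LoVo-HM, against 50.6 FPKM in LoVo. Unknown depth limits values near 0, such as those of BMP2 in LoVo-HM.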
